A study of Mus musculus with 6 samples.

Results

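The genes described here encode the proteins of the mitochondrial ribosome, in MB49 mouse bladder cancer cells. The members are the protein-coding genes of the deposited table whose symbol is Mrpl or Mrps followed by a digit, 78 of 54532 genes, of which 49 carry the name of the large subunit (Mrpl) and 29 that of the small subunit (Mrps). Read counts of poly-A RNA were compared between 3 libraries labelled CRISPR Y-KO and 3 labelled CRISPR Y-Scr, the control that received a non-targeting guide RNA. The labels give MB49 Y+ as the parent of both groups, name no treatment or time, and state that transduced cells were sorted on the fluorescent protein tRFP and grown from single cells. The guide used for Y-KO, the number of clones behind a group and the origin of its 3 replicates (1 culture or several) are not stated. The p-values therefore measure the spread between these libraries, which may be technical, and a property of 1 clone cannot be told apart from the loss of Y. The labels also call the material a tumor. In bulk samples, fewer cells of a type and less RNA per cell cannot be told apart.

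Mitochondria keep their own ribosome, which makes the few respiratory chain proteins that the mitochondrial genome encodes. Its ribosomal RNAs come from that genome, but all of its proteins are encoded in the nucleus, translated in the cytosol and imported. The small subunit holds the messenger RNA and reads its codons, and the large subunit holds the peptidyl transferase center, where peptide bonds form. Many of the proteins have counterparts in bacterial ribosomes, and others were added in the mitochondrial lineage.

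The libraries held 15698510 to 24633158 counts, so that 3 counts stood at 0.125 to 0.190 CPM (counts scaled to a common library size), and tested members had mean levels of 15.6 to 189 CPM. The Y-linked genes Ddx3y, Eif2s3y, Kdm5d and Uty were at 0 counts in all 3 Y-KO libraries and together at 370.1 to 431 CPM in the Y-Scr libraries. The epithelial keratins Krt8 (2188 and 2816 CPM in Y-Scr and Y-KO) and Krt18 (1326 and 1351 CPM) were high, while the epithelial genes Epcam and Cdh1 and the uroplakin Upk3a had 0 counts in all 6 libraries, and the other uroplakins, Krt5, Krt7 and Trp63 were at or near 0. Of 12 urothelial markers 3 were tested, and 2 rose (Krt8 and Krt19). The list's sum was 3348 to 3716 CPM in Y-Scr and 4014 to 4320.3 CPM in Y-KO. The leukocyte marker Ptprc had 0 counts in all 6 libraries, and the sum of 10 leukocyte markers was 8.16 to 8.81 CPM against 3.49 to 6.46 CPM, most of it from Ly6g. The 6 endothelial markers summed to at most 0.859 CPM. The 8 fibroblast and mesenchymal markers summed to 4591 to 5179 CPM in Y-Scr and 5149.6 to 5417 CPM in Y-KO, nearly all of it Vim, with Pdgfrb at 0 counts in all 6 libraries. The part of these marker differences in the results was not tested.

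Changes within the mitochondrial ribosome were modest and mostly toward lower levels in Y-KO. Of the 78 members 77 could be tested: 25 fell, 2 rose and 50 did not pass the threshold. Adjusted p values throughout are from edgeR's quasi-likelihood test with Benjamini-Hochberg adjustment over the 12907 genes tested, with a threshold of 0.05. Over all tested genes 23.0% fell and 20.7% rose, against 32.5% and 2.6% of the tested members. The share that fell is thus above that of all genes by less than 10 percentage points, and the share that rose is far below it. The median log2 fold change (Y-KO minus Y-Scr) was -0.14 over the members and -0.01 over all tested genes. The fold change was below 0 for 59 members and above 0 for 18. Past the threshold, 4 of the 77 tested members changed more than 1.5-fold, beside 1770 of the 12907 tested genes. In 29 members all 3 Y-KO libraries lay below all 3 Y-Scr libraries, and in 3 members all lay above (27.5% and 25.4% of all tested genes). These counts depend on the correction for gene length given further on.

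Summed over the members, the Y-Scr libraries held 4667, 5227 and 5213 CPM and the Y-KO libraries 4596, 4320.4 and 4419 CPM. The Y-KO libraries were all lower, but the first Y-Scr library stood closer to the first Y-KO library than to the other two of its own group. The means were 5036 ± 319 and 4445 ± 139.6 CPM (SD, n = 3), a ratio of 0.883. As a share of all counts, the members took 0.493% ± 0.0251 in Y-Scr and 0.453% ± 0.0128 in Y-KO (SD, n = 3). On this measure the groups overlapped, with 0.464% to 0.508% in Y-Scr and 0.442% to 0.467% in Y-KO.

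The 8 largest falls were in Mrps35, Mrpl1, Mrps10, Mrpl24, Mrpl33, Mrpl32, Mrps18c and Mrpl17, with log2 fold changes from -0.77 to -0.46. Mrps35 encodes a small subunit protein added in the mitochondrial lineage and lies at chr6:147042764-147073991, on the plus strand of GRCm38. Its 3 Y-Scr libraries were at 78.4, 94.3 and 95.8 CPM and its 3 Y-KO libraries at 53.2, 50.0 and 54.0 CPM. The groups did not overlap, and the log2 fold change was -0.77 ± 0.08 (SE; adjusted p = 4.5e-07), a ratio of 0.585. Mrpl1, at chr5:96209493-96266727, encodes the counterpart of the bacterial protein at the L1 stalk, the flexible arm beside the site where used tRNA leaves. It was at 57.6, 60.3 and 56.3 CPM in Y-Scr and at 36.4, 33.6 and 37.3 CPM in Y-KO, again without overlap and with little spread in either group. The log2 fold change was -0.70 ± 0.08 (SE; adjusted p = 1.7e-06). Mrps10, at chr17:47368887-47381417, encodes a protein of the small subunit head. The Y-Scr libraries were at 77.8, 91.9 and 85.0 CPM and the Y-KO libraries at 54.6, 53.1 and 53.5 CPM, so that the Y-KO libraries lay within 1.5 CPM of each other. Its log2 fold change was -0.66 ± 0.08 (SE; adjusted p = 1.4e-06).

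Mrpl24, at chr3:87919506-87923672, encodes a counterpart of a bacterial protein that binds early in large subunit assembly. It was at 30.5, 38.3 and 33.5 CPM in Y-Scr and 22.8, 21.1 and 22.3 CPM in Y-KO, with no overlap (log2 fold change -0.63 ± 0.10, SE; adjusted p = 5.5e-05). It shared 594 exon bases (26.34% of its own) with the opposite-strand gene Rrnad1, which had 1128 counts in the 6 libraries against 3072 for Mrpl24. Whether strand was used in counting is not known, so the split of reads between them is uncertain. Mrpl33, at chr5:31596935-31664384, and Mrpl32, at chr13:14608184-14613165, encode small proteins of the large subunit. Mrpl33 was at 75.5, 97.3 and 78.1 CPM in Y-Scr and 64.0, 59.6 and 53.2 CPM in Y-KO. The second Y-Scr library was the high one, and the groups did not overlap (log2 fold change -0.50 ± 0.10, SE). Mrpl32 was at 53.4, 61.8 and 62.8 CPM in Y-Scr and 42.5, 41.2 and 43.4 CPM in Y-KO (log2 fold change -0.49 ± 0.08, SE). Its precursor is cut after import by the mitochondrial m-AAA protease, a step known to be needed for ribosome assembly. The adjusted p values were 3.9e-04 for Mrpl33 and 1.2e-04 for Mrpl32.

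Mrpl17, at chr7:105803206-105811099 on the minus strand, encodes a protein near the exit of the nascent chain. It was at 136, 153 and 156 CPM in Y-Scr and 116, 99.3 and 109 CPM in Y-KO, without overlap (log2 fold change -0.46 ± 0.07, SE; adjusted p = 4.6e-05). Mrps18c, at chr5:100798627-100804471, was the lowest of the 8 in CPM, with 20.0, 19.6 and 15.1 in Y-Scr and 11.7, 14.4 and 12.9 in Y-KO. Its groups came within 1 CPM of each other (log2 fold change -0.48 ± 0.13, SE; adjusted p = 0.00577). After removal of the length trend of each library, the value was -0.28 and did not pass (adjusted p = 0.105).

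**Figure D1:**
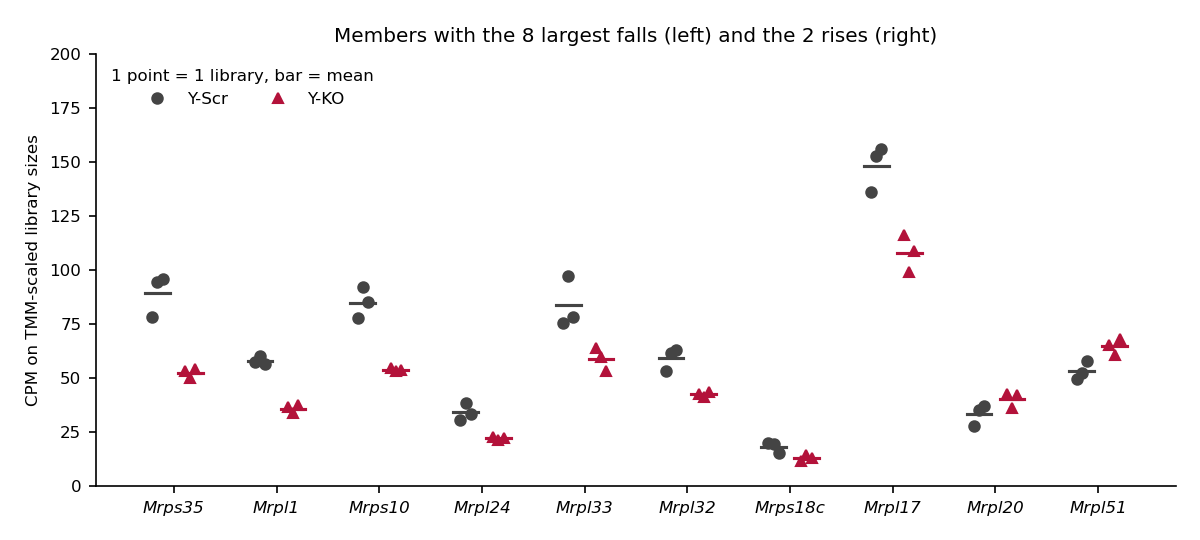
CPM (vertical axis, from 0) of the 8 members with the largest falls and the 2 that rose, 1 point per library (circles Y-Scr, triangles Y-KO) and a bar at each group's mean. In all 8 falls the points of the groups do not overlap, while those of Mrpl20 do (27.6 to 37.1 against 35.9 to 42.4 CPM).

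The other members that fell had log2 fold changes between -0.46 and -0.21. Under 17 alternative analyses (other scalings, filters and tools, length and GC corrections, a replicate block, each library left out), 11 of the 25 falls passed every time: Mrps35, Mrpl1, Mrps10, Mrpl24, Mrpl33, Mrpl32, Mrpl17, Mrpl48, Mrpl13, Mrps17 and Mrpl3. Mrpl48 went from 63.2 ± 4.69 CPM in Y-Scr to 45.9 ± 2.01 CPM in Y-KO (SD, n = 3; log2 fold change -0.46 ± 0.08, SE). Of its exon bases, 708 (8.68%) were shared with Rab6a on the other strand, which had 17214 counts in the 6 libraries against 5972. Mrpl13 was among the most abundant members, with 203, 225 and 225 CPM in Y-Scr and 167, 153 and 161 CPM in Y-KO (log2 fold change -0.44 ± 0.06, SE; adjusted p = 1.9e-05). Mrpl3, which encodes a protein whose bacterial counterpart reaches toward the peptidyl transferase center, was at 138, 145 and 138 CPM in Y-Scr and 119.8, 112 and 115 CPM in Y-KO. Mrps17, of the small subunit, was at 142, 151 and 151 CPM in Y-Scr and 119, 117 and 120.1 CPM in Y-KO. Both had narrow groups that did not overlap, with log2 fold changes of -0.28 ± 0.06 and -0.32 ± 0.06 (SE). The size of some falls did depend on the correction. With the trend on transcript length removed, Mrpl13 was at -0.22 and Mrps10 at -0.44, and with length and GC removed Mrpl32 was at -0.32, all still past the threshold.

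Further falls were less steep or less stable. Mrps22, a small subunit protein added in the mitochondrial lineage, was at 59.7, 60.5 and 49.5 CPM in Y-Scr and 44.2, 39.8 and 41.7 CPM in Y-KO, without overlap, and its fall (-0.43 ± 0.09, SE) passed in 16 of 17 alternatives. Mrpl44, whose protein resembles ribonuclease III, was at 57.5, 63.7 and 61.8 CPM against 42.3, 45.7 and 49.2 CPM (-0.41 ± 0.08). Mrpl23 was at 48.3, 56.1 and 59.4 CPM against 46.1, 39.1 and 39.7 CPM (-0.39 ± 0.09), and Mrpl57 at 69.9, 91.9 and 90.5 CPM against 68.6, 58.2 and 66.7 CPM (-0.38 ± 0.10). In Mrpl23 and Mrpl57 the lowest Y-Scr library lay close to the highest Y-KO library. The falls of Mrpl44, Mrpl23 and Mrpl57 each passed in 16 of 17 alternatives, and that of Mrpl38 (-0.31 ± 0.06) in 15. Some were smaller after the corrections: Mrpl44 was at -0.21 with the length trend removed, Mrps22, Mrpl23 and Mrpl38 were at -0.21, -0.19 and -0.09 with transcript length removed, and Mrpl57 was at -0.09 with length and GC removed. Mrpl14 (-0.30) and Mrpl10 (-0.26) each passed in 11 alternatives, Mrpl27 (-0.27) in 8, Mrps14 (-0.21) in 7 and Mrps31 (-0.25) in 3, and each of these 5 calls was lost without at least 1 single library. Without the second Y-Scr library, the adjusted p was 0.139 for Mrpl14, 0.0542 for Mrpl10, 0.0911 for Mrpl27, 0.102 for Mrps14 and 0.0538 for Mrps31. Without the second Y-KO library it was 0.0833 for Mrpl14, 0.0573 for Mrpl27, 0.136 for Mrps14 and 0.176 for Mrps31. Without the third Y-KO library it was 0.0526 for Mrpl14, 0.0812 for Mrpl10, 0.0521 for Mrpl27 and 0.121 for Mrps14. Each of the 5 calls thus turned on at least 1 library of each group. Mrpl27 also missed the threshold without the third Y-Scr library (0.0687) and the first Y-KO library (0.0686), Mrps14 without the third Y-Scr library (0.0511), and Mrps31 without the first and the third Y-Scr library (0.0827 and 0.126) and the first Y-KO library (0.142). With length and GC removed the sign of Mrps14 turned, to 0.14 (adjusted p = 0.136), and Mrps31 was at -0.01. Mrpl14 was the member that fell although its groups overlapped, with 59.0, 80.3 and 69.5 CPM in Y-Scr and 59.8, 53.0 and 56.6 CPM in Y-KO.

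Of the 50 members that did not pass, Mrpl52 and Mrps11 were farthest from 0. Mrpl52 was at 67.5, 72.4 and 93.4 CPM in Y-Scr and 67.3, 65.9 and 65.3 CPM in Y-KO (-0.24 ± 0.10, SE; adjusted p = 0.0628), with the third Y-Scr library far above the rest. Mrps11, a small subunit protein with a bacterial counterpart, was at 18.4, 17.1 and 24.4 CPM in Y-Scr and 25.2, 24.7 and 21.3 CPM in Y-KO (0.24 ± 0.13, SE; adjusted p = 0.136). In both the groups came within 1 CPM of each other or overlapped, and both passed without 1 library: Mrpl52 fell without the first Y-Scr library (-0.32, adjusted p = 0.00563), and Mrps11 rose without the third (0.42, adjusted p = 0.00653). At the center of the range, Mrps5 was at 60.3 ± 3.08 and 60.2 ± 1.24 CPM and Mrps33 at 27.4 ± 1.54 and 27.4 ± 0.542 CPM (SD, n = 3).

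Both rises were in large subunit members. Mrpl51, at chr6:125191801-125196269, encodes a protein added in the mitochondrial lineage. It was at 49.4, 52.1 and 58.1 CPM in Y-Scr and 65.5, 60.6 and 68.1 CPM in Y-KO, without overlap (log2 fold change 0.28 ± 0.08, SE; adjusted p = 0.00943). The call was lost without the third Y-KO library (0.25, adjusted p = 0.0603), and the adjusted p under the other alternatives ranged up to 0.0326. Mrpl20, at chr4:155802878-155809975, encodes the counterpart of a bacterial protein needed early in large subunit assembly. It was at 27.6, 35.0 and 37.1 CPM in Y-Scr and 42.4, 35.9 and 42.0 CPM in Y-KO. The second Y-KO library lay below the highest Y-Scr library, and the log2 fold change of 0.27 ± 0.11 (SE) only just passed (adjusted p = 0.0497). The Mrpl20 call was lost with limma-voom, with the replicate block and without any of 4 single libraries, with adjusted p values of 0.202 without the first Y-Scr library, 0.0639 without the second, 0.167 without the first Y-KO library and 0.154 without the third.

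**Figure D2:**
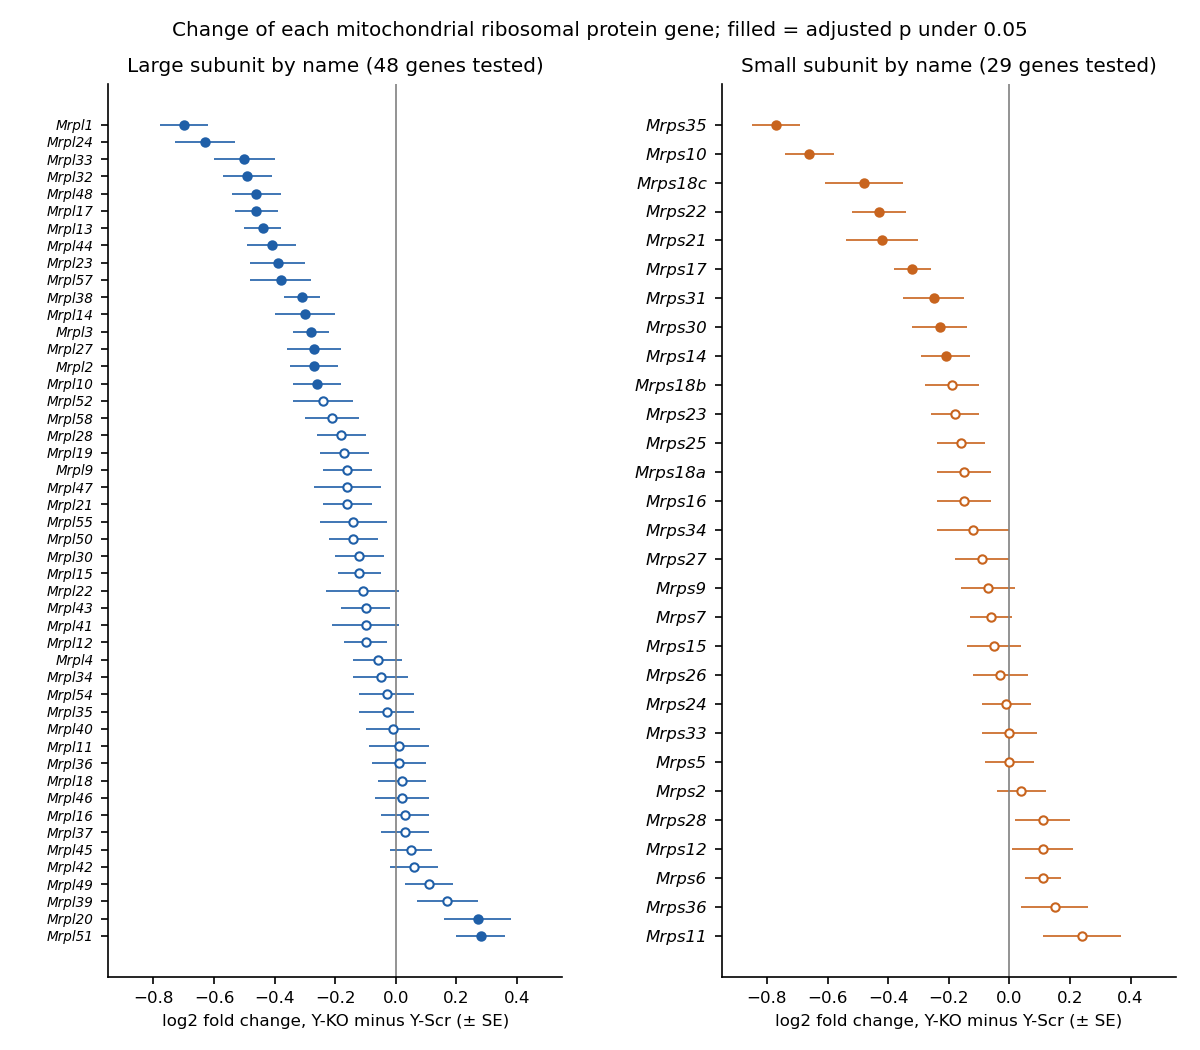
Log2 fold change (Y-KO minus Y-Scr, horizontal axis) with its SE for each tested member, the 48 of the large subunit by name at left and the 29 of the small subunit at right, each sorted by value. Filled points passed the threshold (16 lower and 2 higher at left, 9 lower at right), and both panels span a like range of values.

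Both subunits had like shares of falls and like medians. Of 48 tested large subunit members 16 fell and 2 rose, with a median log2 fold change of -0.14, and of 29 small subunit members 9 fell and none rose, with a median of -0.12 (-0.06 without the second or the third Y-Scr library). The ranges were -0.70 to 0.28 and -0.77 to 0.24. Summed over the large subunit, the means were 3383 ± 234 CPM in Y-Scr and 2967 ± 112 CPM in Y-KO, a ratio of 0.877. Over the small subunit they were 1653 ± 85.7 and 1478 ± 28.1 CPM, a ratio of 0.894. The large to small ratio of these sums was 2.00, 2.07 and 2.06 in the Y-Scr libraries and 2.05, 1.98 and 1.99 in the Y-KO libraries. The groups overlapped in that ratio, and its means of 2.04 ± 0.0379 and 2.01 ± 0.0379 (SD, n = 3) differed by less than 1 SD. The difference between the subunits is described here and was not given a p value.

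**Figure D3:**
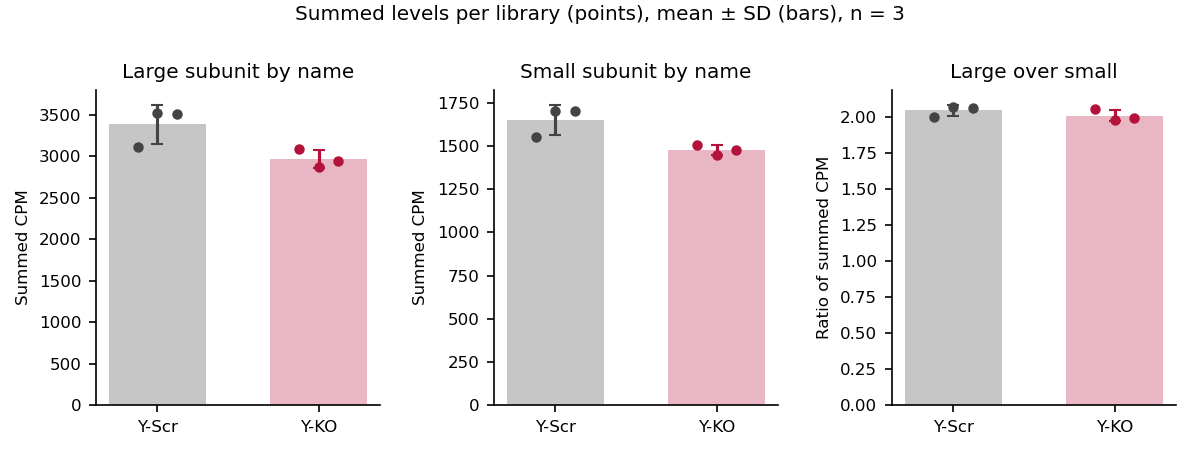
CPM summed over the large and the small subunit members by name, and the ratio of these sums, with 1 point per library, bars at the group mean from 0 and error lines of 1 SD (n = 3). Both sums are lower in Y-KO (ratios 0.877 and 0.894), and the points of the large to small ratio overlap (2.00 to 2.07 in Y-Scr, 1.98 to 2.05 in Y-KO).

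Names and structure differ for a few members. The Mrps30 and Mrps18a proteins sit in the large subunit despite their names, and the Mrps36 protein is known as a part of the alpha-ketoglutarate dehydrogenase complex rather than the ribosome. Placed by structure, 17 of 50 tested large subunit members fell and 2 rose (median -0.15), and 8 of 26 small subunit members fell and none rose (median -0.11). Mrps30 was at 53.3, 58.0 and 50.3 CPM in Y-Scr and 42.1, 49.5 and 46.6 CPM in Y-KO. Its groups came within 1 CPM of each other, and the log2 fold change of -0.23 ± 0.09 (SE) passed narrowly (adjusted p = 0.0433). The call was lost without the first or second Y-Scr library (adjusted p = 0.0604 and 0.193) and without the first or the third Y-KO library (0.21 and 0.0924), and also with DESeq2 (0.0636). Mrps18a, Mrps18b and Mrps18c are related copies of 1 ancestral gene. Mrps18c fell, while Mrps18a was at -0.15 ± 0.09 and Mrps18b at -0.19 ± 0.09 (SE), neither past the threshold (adjusted p = 0.204 and 0.0966). Without the third Y-Scr library Mrps18b was at -0.26 and passed (adjusted p = 0.0244). Whether the 3 copies differ was not tested. Mrps36 was at 0.15 ± 0.11 (SE; adjusted p = 0.276). Mrpl12 encodes a stalk protein that also binds the mitochondrial RNA polymerase. It did not pass, at -0.10 ± 0.07 (SE; adjusted p = 0.288), with 132, 157 and 135 CPM in Y-Scr and 142, 126 and 127 CPM in Y-KO. By origin, 17 of 46 members with a bacterial counterpart fell and 1 rose, and 8 of 30 added in the mitochondrial lineage fell and 1 rose, with medians of -0.15 and -0.13. The shares that fell were 37.0% and 26.7%, beside 23.0% of all tested genes. With the length trend removed, 12 fell and 9 rose in the first group and 8 fell and 5 rose in the second, with medians of 0.0 and 0.04.

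Gene length matters for these members, because their tested lengths had a median of 2255 bases against 4000 over all tested genes. The length in the deposited table counts all exon bases of all transcripts of a gene. In all tested genes the fold change rose with this length. Over 5 equal groups from short to long, the medians were -0.14, -0.11, -0.03, 0.05 and 0.14, the share that rose went from 5.58% to 38.1%, and the share that fell from 24.6% to 14.1%. The members ran the other way. Their medians in the same groups were -0.05 (31 members), -0.12 (19), -0.15 (11), -0.23 (9) and -0.46 (7), and in the group of the longest genes 6 of 7 members fell. In the shortest group, where most members lie, 7 of 31 members fell (22.6%) and 1 rose (3.23%), close to the 24.6% and 5.58% of all genes there. Across genes, which are not independent replicates and share these libraries, the correlation of log2 fold change with log2 length was r = 0.12 (rho = 0.23) over 12907 genes and r = -0.36 (rho = -0.33) over 77 members.

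**Figure D4:**
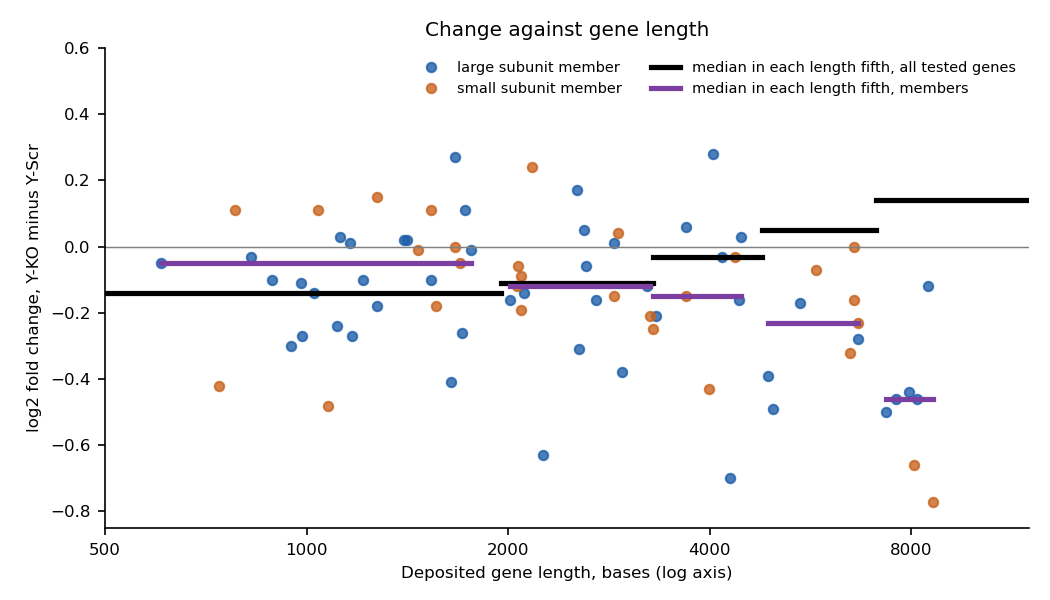
Log2 fold change of each tested member against its deposited gene length in bases (log axis), with lines at the median of all tested genes (black) and of the members (purple) in each of 5 equal groups by length; the outermost black lines are drawn only as far as the axis. The black lines climb from -0.14 to 0.14, and the purple lines descend from -0.05 to -0.46.

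Several long members are long through the union of their exons rather than through 1 transcript. Over all 78 members the median deposited length was 2213.5 bases and the median of the longest coding transcript 1327.5 bases, and in 18 members the first was over 2 times the second. Of these 18 members 8 fell and 1 rose (median -0.19), and of the other 59 tested 17 fell and 1 rose (median -0.12). Of all tested genes, 571 of 1885 with a ratio over 2 fell and 306 rose (median -0.08), and 2393 of the other 11012 fell and 2361 rose (median 0.0). Mrpl33 had a deposited length of 7326 bases and a longest coding transcript of 478, Mrps10 had 8079 and 1113, and Mrpl13 had 7936 and 1223. With transcript length in place of the deposited length, the correlation was r = 0.14 over all genes and r = -0.15 over the members.

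When each library's trend on gene length was removed, the balance of calls changed. Of 77 members 20 fell and 15 rose, with a median of 0.03, beside 19.4% of all tested genes that fell, 25.7% that rose and a median of 0.05. The large subunit then had 13 falls and 9 rises (median 0.03) and the small subunit 7 falls and 6 rises (median 0.0). Of the 25 falls 18 passed in this fit too, as did both rises. Removing length and GC content together gave 18 falls and 18 rises (18.8% and 25.0% of all genes). A trend on transcript length, added after seeing the data, gave 16 falls and 19 rises (18.8% and 25.8% of all genes). In the order of these fits, 19.5%, 23.4% and 24.7% of the tested members rose, and 26.0%, 23.4% and 20.8% fell. The share that rose thus came much nearer to that of all genes than in the uncorrected fit (2.6% of members). It stayed below that of all genes in each fit, and the share that fell stayed above. The call changed for 22 members when the length trend was removed. The 6 that moved most were Mrps36 (0.15 to 0.37, then adjusted p = 0.00353), Mrpl2 (-0.27 to -0.06), Mrpl18 (0.02 to 0.24), Mrps24 (-0.01 to 0.20), Mrpl46 (0.02 to 0.23) and Mrps12 (0.11 to 0.32). Mrps12 encodes the counterpart of a bacterial decoding center protein, and its groups overlapped in CPM (26.8, 29.9 and 34.8 in Y-Scr, 33.6, 32.7 and 32.7 in Y-KO). Mrpl2, counterpart of a protein at the heart of the bacterial large subunit, was at 62.7, 74.4 and 74.6 CPM in Y-Scr and 60.9, 55.9 and 58.5 CPM in Y-KO. Its uncorrected fall (adjusted p = 0.0107) was also lost without the second Y-Scr library (0.0556) or the second Y-KO library (0.0565). The largest falls changed little: Mrps35 was at -0.85, Mrps10 at -0.72 and Mrpl1 at -0.63 with the length trend removed.

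**Figure D5:**
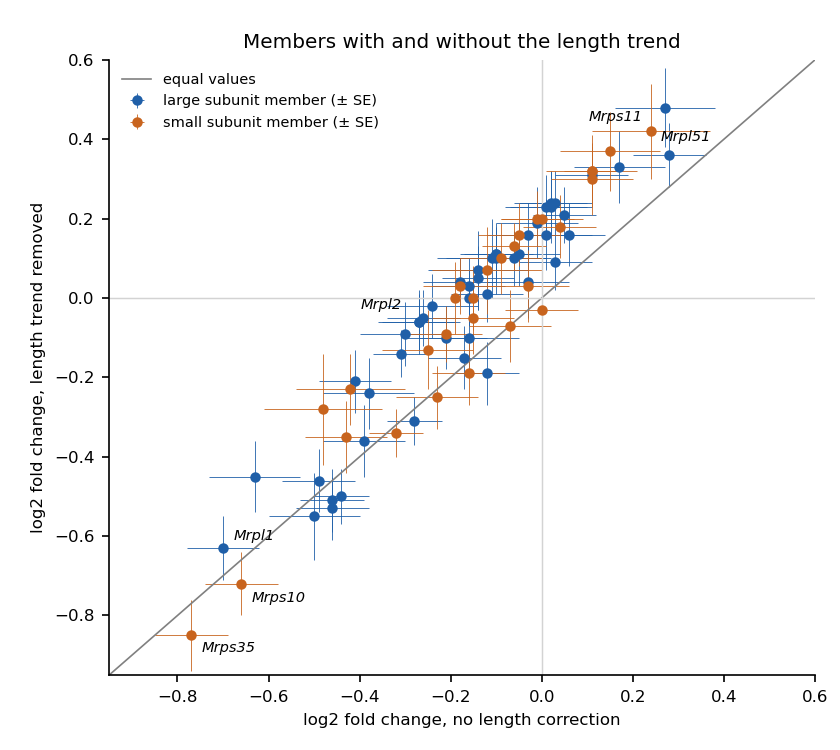
Log2 fold change (± SE) of each tested member with no length correction (horizontal axis) and with each library's length trend removed (vertical axis), and the line of equal values. Most short members lie above the line, such as Mrpl2 at -0.27 and -0.06, and Mrps35 (-0.77 and -0.85) and Mrps10 (-0.66 and -0.72) lie below it.

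Levels between members were compared per kilobase of the deposited length, as CPM per kilobase over all 6 libraries. Of the members named for the large subunit the highest were Mrpl12 at 89.0 and Mrpl28 at 83.7, and the lowest tested were Mrpl47 at 5.17 and Mrpl48 at 6.69. Among members named for the small subunit the highest were Mrps6 at 78.0 and Mrps21 at 60.7, and the lowest Mrps30 (of the large subunit by structure) at 7.50 and Mrps25 at 7.66. Exons shared with opposite-strand genes make some of the low levels uncertain: Mrpl47 shared 10.23% of its exon bases with Actl6a (10173 counts in the 6 libraries) and 13.94% with Ndufb5 (7234 counts), and Mrps25 shared 69.8% with Nr2c2 (3524 counts). This order rests on the length used: per kilobase of the longest coding transcript, Mrpl13 and Mrpl52 led with 155 each, and Mrpl33 moved from rank 67 to rank 3 (149). Mrpl47 was lowest of the tested members on both scales. Of the 8 members with the highest and lowest levels, Mrps21 fell, with 42.1, 49.1 and 62.6 CPM in Y-Scr and 38.8, 37.2 and 39.3 CPM in Y-KO (log2 fold change -0.42 ± 0.12, SE; adjusted p = 0.00783), as did Mrpl48 and Mrps30. Its Y-Scr libraries were spread widely, and the groups did not overlap. Mrps6 had non-overlapping groups in the other direction (112, 118 and 116 CPM against 130.1, 119 and 123 CPM) but did not pass without the length correction (0.11 ± 0.06, SE; adjusted p = 0.176). With the length trend removed Mrps6 was at 0.32 (adjusted p = 9.2e-05). Mrpl28, Mrpl47 and Mrps25 were at -0.18, -0.16 and -0.16 and did not pass. Mrps25 fell with the length trend removed (-0.19, adjusted p = 0.0499) and with transcript length removed (-0.29, adjusted p = 0.00338). Mrpl28 passed without the first Y-Scr library (-0.23, adjusted p = 0.015) or the first Y-KO library (-0.25, adjusted p = 0.0279).

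Mrpl53 had 0 counts in all 6 libraries and was the only member that could not be tested. Of its exon bases 695 (87.97%) lie in the same-strand gene Gm42688, which had 60 counts, so the level of Mrpl53 is uncertain. Altogether 32 tested members shared exon bases with another gene, of which 11 fell and 1 rose, and of the 45 that shared none 14 fell and 1 rose. Of 19 members that shared bases with an opposite-strand gene of at least 100 counts, 6 fell (31.6%, beside 23.0% of all tested genes) and none rose, and with the length trend removed 5 fell and 5 rose. Processed pseudogenes that could take reads had few counts: Mrpl48-ps 174 in the 6 libraries, Mrpl23-ps1 65 and Mrps36-ps1 37. The members lie on 17 chromosomes. All 4 tested members on chromosome 5 fell (Mrpl1, Mrpl33, Mrps18c and Mrps17, median -0.49), beside 23.0% of all tested genes. All tested genes of that chromosome had a median of 0.01. With the length trend removed the call of Mrps18c was lost (-0.28, adjusted p = 0.105). This chromosome was singled out after its values were seen.

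Promoter sequences from RefSeq (GRCm38.p6) were searched in windows of 250 bases before to 50 after each start, on both strands, for 4 short motifs. These were CCGGAAG, a core bound by ETS factors such as GABP, GCGCATG, a core of the NRF-1 site, AAGATGG, a core of the YY1 site, and CACGTG, the E-box bound by MYC and MAX. None of them contains another. The motifs were chosen after a look at the windows. A promoter was matched by symbol for 69 of 78 members. The 250 upstream bases of 6 members are given 5' to 3' on the gene's strand, with motif matches in capitals: 4 falls with CCGGAAG or GCGCATG, 1 fall with no match upstream, and 1 rise with an E-box. Only windows with at most 29 bases of annotated exon were shown, and not all of these (that of Mrps14 was left out). Among the windows left out, that of Mrpl51, which rose, has CCGGAAG, and those of Mrpl2 and Mrps18c, which fell, have CACGTG. Matches upstream also lie in the left-out windows of the falls Mrpl10, Mrpl27 and Mrpl32 and in 1 window of Mrpl48. No match upstream was found in the left-out falls Mrpl1, Mrps10, Mrpl24, Mrpl44, Mrpl23, Mrpl57, Mrpl14, Mrps21, Mrps14, Mrps30 and Mrps31.
Mrpl17, fell, chr7:105811088-105811337, minus strand: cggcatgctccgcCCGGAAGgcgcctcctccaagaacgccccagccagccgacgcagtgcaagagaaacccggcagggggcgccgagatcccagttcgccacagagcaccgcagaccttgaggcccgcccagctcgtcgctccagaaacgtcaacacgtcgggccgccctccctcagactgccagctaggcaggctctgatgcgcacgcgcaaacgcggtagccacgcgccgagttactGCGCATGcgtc
Mrpl33, fell, chr5:31613701-31613950, plus strand: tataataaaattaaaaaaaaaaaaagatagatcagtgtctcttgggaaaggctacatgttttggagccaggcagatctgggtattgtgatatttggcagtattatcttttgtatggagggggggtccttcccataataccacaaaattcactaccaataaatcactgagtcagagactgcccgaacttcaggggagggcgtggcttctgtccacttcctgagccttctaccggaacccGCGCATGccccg
Mrpl3, fell, chr9:105053018-105053267, plus strand: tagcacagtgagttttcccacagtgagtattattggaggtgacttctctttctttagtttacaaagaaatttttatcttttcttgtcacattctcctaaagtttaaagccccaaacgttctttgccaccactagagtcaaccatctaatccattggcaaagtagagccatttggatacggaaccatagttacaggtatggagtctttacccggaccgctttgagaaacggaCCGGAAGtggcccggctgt
Mrps22, fell, chr9:98601680-98601929, minus strand: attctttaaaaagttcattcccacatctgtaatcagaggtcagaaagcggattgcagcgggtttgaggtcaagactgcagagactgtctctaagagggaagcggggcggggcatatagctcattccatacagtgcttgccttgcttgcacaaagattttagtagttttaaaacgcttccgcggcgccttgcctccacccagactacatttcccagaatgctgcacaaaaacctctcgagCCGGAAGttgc
Mrps17, fell, chr5:129715247-129715496, plus strand: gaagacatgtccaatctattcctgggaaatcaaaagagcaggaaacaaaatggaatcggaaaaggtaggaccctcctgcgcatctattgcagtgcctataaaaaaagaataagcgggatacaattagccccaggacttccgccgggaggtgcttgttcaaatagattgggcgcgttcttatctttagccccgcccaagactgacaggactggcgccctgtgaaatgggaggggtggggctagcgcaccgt
Mrpl20, rose, chr4:155802628-155802877, plus strand: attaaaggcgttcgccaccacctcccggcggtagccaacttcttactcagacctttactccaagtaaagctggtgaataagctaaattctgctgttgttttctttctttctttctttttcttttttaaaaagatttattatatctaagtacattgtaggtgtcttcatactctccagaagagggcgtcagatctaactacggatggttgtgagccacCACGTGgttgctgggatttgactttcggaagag

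The CCGGAAG motif was found in the windows of 26 of 69 members (37.7%), against 21.4% of tested genes and 9.9% of all genes with a promoter. As the motifs were chosen after a look at these windows, the shares are not a test for an excess over other genes. It was about as frequent in members that fell (9 of 22, 40.9%) as in those that did not (17 of 47, 36.2%). GCGCATG was in 4 of 22 members that fell (18.2%) and 4 of 47 that did not (8.5%), beside 8.3% of tested genes. AAGATGG was in 1 of 22 (4.5%) and 12 of 47 (25.5%), beside 8.7% of tested genes. CACGTG was in 2 of 22 (9.1%) and 3 of 47 (6.4%), beside 11.9% of tested genes. In the sequences shown, Mrpl17 has both CCGGAAG and GCGCATG, Mrpl3 and Mrps22 have CCGGAAG close to the start, and Mrpl33 has GCGCATG upstream and a CCGGAAG match that crosses the start. A match is a run of letters and not a measured binding site.

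Mitochondrial ribosome proteins with other names were set beside the members. Of 5 such genes tested, 3 fell (60.0%) and none rose (median -0.28), beside 23.0% and 20.7% of all tested genes. With the length trend removed 2 fell (40.0%, beside 19.4% of all tested genes). With transcript length removed, or length and GC, 1 fell (20.0%, beside 18.8%), and none rose in any of these fits. Chchd1, a small subunit protein, was at 119.7 ± 10.5 CPM in Y-Scr and 85.5 ± 1.57 CPM in Y-KO (SD, n = 3), and its log2 fold change of -0.48 ± 0.07 (SE; adjusted p = 2.0e-05) was -0.28 and past the threshold with the length trend removed. Aurkaip1 (-0.28, adjusted p = 0.0177) and Gadd45gip1 (-0.29, adjusted p = 0.0403) did not pass in that fit, at -0.07 and -0.13. Leaving out 1 library also ended these 2 calls, with adjusted p values for Aurkaip1 of 0.0815 without the third Y-Scr and 0.0922 without the first Y-KO library. For Gadd45gip1 they were 0.246 and 0.0644 without the second and the third Y-Scr library, and 0.0537, 0.154 and 0.0764 without the first, the second and the third Y-KO library. Dap3 and Ptcd3 did not pass, but Ptcd3 fell with the length trend removed (-0.17, adjusted p = 0.0494).

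Of 26 tested genes for mitochondrial ribosome assembly and rRNA modification, 12 fell (46.2%) and 3 rose (11.5%), with a median of -0.23. Over all tested genes 23.0% fell and 20.7% rose. With the length trend removed, 10 fell (38.5%) and 8 rose (30.8%), beside 19.4% and 25.7% of all tested genes. Ddx28, an RNA helicase of large subunit assembly, was at 43.6 ± 0.814 CPM in Y-Scr and 26.4 ± 1.62 CPM in Y-KO (SD, n = 3; log2 fold change -0.72 ± 0.09, SE). Malsu1, which binds the large subunit while it matures and keeps it from joining the small subunit, was at 46.7 ± 4.61 and 29.9 ± 3.23 CPM (log2 fold change -0.64 ± 0.10, SE). Noa1, a GTPase of small subunit assembly, rose from 53.7 ± 4.32 to 74.6 ± 1.05 CPM (log2 fold change 0.47 ± 0.08, SE). All 3 passed with adjusted p values of 2.1e-06, 3.6e-05 and 7.2e-05.

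Translation factors and messenger RNA partners of the mitochondrial ribosome had 4 rises and 4 falls among 14 tested genes, 28.6% each and near the 20.7% and 23.0% of all tested genes. The median was -0.04, and 0.15 with the length trend removed. Tufm, the elongation factor that brings tRNA to the ribosome, rose from 119 ± 7.52 to 153 ± 10.6 CPM (log2 fold change 0.36 ± 0.07, SE). Lrpprc, which stabilizes mitochondrial messenger RNA, rose from 119 ± 3.52 to 153 ± 5.29 CPM (0.36 ± 0.06), and Mrrf, the factor that recycles ribosomes, fell from 40.4 ± 1.99 to 29.1 ± 4.18 CPM (-0.47 ± 0.10). The adjusted p values of the 3 were 2.9e-04, 9.3e-05 and 9.3e-04.

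Of 11 genes of mitochondrial DNA replication and transcription 3 rose (27.3%) and 2 fell (18.2%), with a median of 0.01. These shares are near the 20.7% and 23.0% of all tested genes. The helicase Twnk rose by 0.59 ± 0.09 and the RNA polymerase Polrmt by 0.45 ± 0.09, and the elongation factor Tefm fell by 0.69 ± 0.12 (log2, SE; adjusted p = 4.2e-05, 3.9e-04 and 9.9e-05). Of 14 tested transcripts of the mitochondrial genome, none rose and 1 fell (7.14%), mt-Co3 (-0.52 ± 0.17, SE; adjusted p = 0.019), and the median was -0.20. With the length trend removed none fell or rose and the median was 0.01, and with length and GC removed 3 rose, none fell and the median was 0.24, so the list has no direction that holds across the fits. The mt-Co3 call was lost without the first Y-Scr library (0.0535), without the third Y-KO library (0.13) and with the length trend removed (0.103). The ribosomal RNAs mt-Rnr1 and mt-Rnr2, which the members bind, were at -0.05 ± 0.07 and -0.10 ± 0.06 (SE) and did not pass. Their sign turned with the corrections: with the length trend removed they were at 0.16 and 0.10, again not past the threshold, and with length and GC removed both rose, by 0.51 and 0.48 (adjusted p = 0.00375 and 1.7e-06). With transcript length removed mt-Rnr1 rose by 0.17 (adjusted p = 0.0383), and mt-Rnr2 was at 0.10 and did not pass. In libraries of poly-A RNA their counts are not a measure of whole rRNA.

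Among 10 regulators of mitochondrial gene expression 4 rose (40.0%) and 2 fell (20.0%), with a median of 0.21. Over all tested genes 20.7% rose and 23.0% fell. With the length trend removed 5 rose (50.0%) and 2 fell (20.0%), beside 25.7% and 19.4% of all tested genes. With length and GC removed 6 rose and 3 fell (25.0% and 18.8% of all genes), and with transcript length removed 3 rose and 2 fell (25.8% and 18.8%). Myc, the growth regulator, fell from 508 ± 24.9 to 300.4 ± 3.91 CPM (SD, n = 3; log2 fold change -0.76 ± 0.06, SE; adjusted p = 9.3e-09). Hcfc1, a cofactor of ETS and other factors, rose from 111 ± 13.7 to 207 ± 21.3 CPM (0.90 ± 0.09; adjusted p = 1.5e-06), and Pprc1, a coactivator of the PGC-1 family, rose from 80.8 ± 6.86 to 110.5 ± 11.3 CPM (0.45 ± 0.08; adjusted p = 1.7e-04). Nrf1 was at 0.12 ± 0.08 and Gabpa at 0.20 ± 0.08, neither past the threshold, and Gabpb1 fell by 0.29 ± 0.08 (log2, SE). Yy1 rose by 0.23 ± 0.06 (log2, SE; adjusted p = 0.00463), and with transcript length removed Yy1 was at 0.09 and did not pass. Gabpa rose with the length trend removed (0.21, adjusted p = 0.0317) and with length and GC removed (0.36, adjusted p = 2.1e-04), and Nrf1 was at 0.02 and -0.03 in these fits and did not pass.

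The cytosolic ribosome, named by the same kind of rule (Rpl or Rps and a digit), had 37 falls and no rise among 77 tested of 80 genes, with a median of -0.20. The falls were 48.1% of the tested genes of this list. Of all tested genes 23.0% fell and 20.7% rose. With the length trend removed there were 22 falls (28.6%) and 9 rises (11.7%), with a median of -0.04. In that fit 19.4% of all tested genes fell and 25.7% rose. Rpl9, Rps7 and Rps16 had the smallest adjusted p values, with log2 fold changes of -0.55 ± 0.06, -0.52 ± 0.06 and -0.74 ± 0.09 (SE). The sum over the list was 82531 ± 8396 CPM in Y-Scr and 69836 ± 1545 CPM in Y-KO (SD, n = 3), a ratio of 0.846 beside 0.883 for the mitochondrial ribosome. Whether the lists differ in their change was not tested. Many cytosolic ribosomal protein genes have near-identical pseudogenes, so reads may have been split between copies.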

How the data were processed

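Poly-A RNA from 6 libraries of MB49 cells (3 CRISPR Y-Scr and 3 CRISPR Y-KO) was sequenced. The libraries were treated here as 1 batch, and their titles name no batch. The authors deposited whole-number counts per gene without normalization. STAR 2.5.2b, featureCounts 1.5.3, Trimmomatic 0.39, MultiQC 1.13, FastQC 0.12.1 and DESeq2 are named in the submitters' processing notes, which give GRCm39 and mm39 as builds. Coordinates in the table matched a GRCm38 annotation (GENCODE M21) for 98.3% of shared genes and for 73 of the 78 members, and are given as GRCm38. No source used here states the strand option of the counting.

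Counts were fitted on all genes with edgeR 4.0.16 (TMM scaling, filterByExpr, robust quasi-likelihood fit on group, Benjamini-Hochberg adjustment) in R 4.3.3, checked on simulated data. CPM values use TMM-scaled library sizes. Length and GC trends were removed as offsets per library (natural spline with 4 degrees of freedom). Alternatives used DESeq2 1.42.0, limma-voom 3.58.1, other scalings and filters, a replicate block, and each library left out. No pair of replicates agreed within sampling noise (chi-square over its degrees of freedom 3.44 to 14.8).

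Named genes were the 8 largest rises and falls past the threshold, the members with the extreme levels per kilobase, untested members, members with a known unusual place, the 6 whose call moved most with length, and up to 3 genes per companion list. Mrpl13, Mrps17, Mrpl3, the other falls and the further genes named without passing were added after their values were seen, as were the bacterial or mitochondrial origin groups and the motifs. The members and lists were chosen with earlier results of these data known. Mrp63 and Ict1, on the companion list, carry the symbols Mrpl57 and Mrpl58 in the table and count as members.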

Additional observations from a re-analysis of the deposited data

How the results depend on the processing

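Of the 17 alternatives, the trend on transcript length was chosen after seeing the data. Members that rose (2) numbered 1 with limma-voom and 1 with the replicate block, 15 with the length trend removed, 18 with length and GC removed, 13 with the replicate block and length removed, and 19 with transcript length removed; leaving out a library gave 0 to 3. Members that fell (25) numbered 15 with the replicate block and length removed, 16 with transcript length removed, and 18 to 29 without 1 library. The median of -0.14 was 0.03 with length removed, -0.01 with length and GC, 0.03 with the replicate block and length and 0.04 with transcript length, and -0.17 to -0.11 without 1 library.

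For the large subunit, in the same order of settings, rises numbered 1, 1, 9, 11, 7 and 12 (0 to 2 without 1 library), falls numbered 10 with the replicate block and length removed (12 to 21 without 1 library), and the median was 0.03, -0.02, 0.03 and 0.04 under the 4 trend removals. For the small subunit, rises numbered 6, 7, 6 and 7 under the 4 trend removals (0 to 1 without 1 library), falls numbered 5 with length and GC, 5 with the block and length and 5 with transcript length (6 to 9 without 1 library), and the median was 0.0, 0.03, 0.0 and 0.04 (-0.16 to -0.06 without 1 library). The cause of these shifts beyond the offsets themselves was not tested.

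The sign of the fold change reversed for 7 members named by the rule, none of them past the threshold in the uncorrected fit. Outside the rule, Mrps14, which had fallen (-0.21), was at 0.14 with length and GC removed. With length removed, Mrpl28 was at 0.04, Mrpl12 at 0.11 and Mrps24 at 0.20. With length and GC removed, Mrpl12 was at 0.01 and Mrps24 at 0.12. With the replicate block and length removed, Mrpl28 was at 0.03, Mrpl12 at 0.11 and Mrps24 at 0.20. With transcript length removed, Mrpl28 was at 0.04, Mrpl12 at 0.12, Mrps18a at 0.06, Mrps18b at 0.03 and Mrps24 at 0.21. Without the third Y-Scr library Mrps24 was at 0.06 and Mrpl46 at -0.02, and without the third Y-KO library Mrpl18 was at -0.02, Mrps24 at 0.0 and Mrpl46 at -0.02. Over all leave-one-out fits Mrpl18 ranged from -0.02 to 0.07, Mrps24 from -0.05 to 0.06 and Mrpl46 from -0.02 to 0.07. Of 833 values of named genes under the alternatives, 740 kept direction and side of the threshold.

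Replicate numbers did not pair the libraries: deviations from the group means correlated at -0.064, -0.034 and -0.024 for equal numbers. Without the third Y-Scr library 1 small subunit member rose (Mrps11). Of the 50 members without a call, 31 passed in at least 1 alternative.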
